A study of Arabidopsis thaliana with 12 samples.

Results

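The data are the 4 wild-type libraries among 12 leaf samples of Arabidopsis (Col-0) that were kept in continuous light. They were taken by their genotype label alone, and no measured value entered the choice. The other 8 samples overexpress or lack the plastidic glucose transporter pGlcT2, and no comparison with them is made. The wild types are labelled with no other allele or agent. They had grown for 24 days in short days, spent 10 to 12 days at 100 to 120 µmol quanta m−2 s−1 without darkness, and were sampled at midday. Each library is one biological replicate of leaf tissue, and how many plants entered a replicate is not given in the sources used here.

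A mature leaf is mainly mesophyll, the tissue of photosynthesis. Its chloroplasts hold photosystems II and I, which are surrounded by chlorophyll-binding antenna proteins. Electrons pass from water through both photosystems, and the Calvin cycle, opened by Rubisco, fixes CO2 with the energy gained. Most proteins of these machines are encoded in the nucleus, often by several genes per protein, so the level of each isoform shows which copy a leaf relies on for its mRNA. Rubisco also binds oxygen, and photorespiration salvages the product of that side reaction through chloroplast, peroxisome and mitochondrion.

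The values are FPKM, that is reads scaled by gene length and by library size, so levels of different genes can be set beside each other. Undoing the length scaling left steps of equal size in each library (100% of values above 0, within 0.01 of a step), and 1 step was taken as 1 read. The libraries then held 19035449, 23097352, 24276381 and 21710618 reads in replicates 1 to 4. Of 32954 genes in the table, 24232 were above 0 in at least 1 library and 17850 reached a mean of 1 FPKM, called expressed here. The libraries were alike but not equally so. Across expressed genes, r of log2(FPKM + 1) was highest for replicates 3 and 4 (0.991) and lowest for replicates 2 and 4 (0.979), which is a description over genes that are not independent. Replicates 3 and 4 differed by 2-fold or more in 294 genes and replicates 2 and 4 in 654. Replicate 2 stood apart most often, being the highest library in 5157 expressed genes (28.9%) and the lowest in 5820 (32.6%). Counts that rest on it are therefore given with and without it.

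The tissue label was checked against marker genes. All 5 mesophyll markers were expressed, among them *LHCB1.3* and *RBCS1A*, the highest genes of the table. Epidermis was present with *LTP1*, a lipid-transfer protein of the cuticle, at 839 to 1039 FPKM, and all 6 epidermal markers were expressed. All 6 guard cell markers were expressed at low level, led by *GC1* at 20.8 to 51.5 FPKM, and *FAMA*, which specifies guard cells, stayed at 10.7 to 11.4 FPKM. Phloem showed *SUC2*, the sucrose loader of companion cells, at 74.4 to 102 FPKM, and xylem showed the protease *XCP2* at 18.6 to 21.1 FPKM. Of 9 meristem and cell division markers 7 were expressed, with *STM* at 6.65 to 10.6 FPKM. Only 1 of 4 trichome markers (*GL2*, 2.92 to 3.82 FPKM) and 1 of 9 root markers (*PYK10*, 6.87 to 12.5 FPKM) reached 1 FPKM. None of 8 flower organ markers and none of 10 seed markers did, and *VGD1* of pollen and the seed storage genes *CRB*, *CRC*, *SESA2* and *SESA3* were at 0 in every library. Markers of leaf cell types were thus present, except most of those of trichomes. *STM* of the shoot meristem and markers of dividing cells were present at low level, while 1 of these 9 genes was at 0 in every library. Whether shoot apex was sampled with the leaves was not tested.

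Photosynthesis genes held the largest named share of the mRNA pool. The photosynthesis classes were made of listed genes and need not hold every gene of their function. The 62 listed nuclear genes of photosystems, antennae and electron transport took 14.1%, 12.7%, 16.0% and 17.3% of the summed FPKM in replicates 1 to 4. Their mean was 15.04% ± 2.01 (SD, n = 4). Without replicate 2 the mean was 15.8%. Bulk RNA was measured, so fewer cells of a type and less RNA per cell cannot be told apart in any such share. The 4 genes of the small subunit of Rubisco took 2.04% ± 0.397, and 20 other genes of Calvin cycle enzymes took 2.24% ± 0.175. Photorespiration with catalases took 1.37% ± 0.0612 from 21 genes. The 6 carbonic anhydrase genes took 0.150%.

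Protein synthesis and turnover came next, spread over many more genes. The 321 ribosomal protein genes took 4.39% ± 0.373 of the pool, of which 284 were expressed. Genes named for ubiquitin or the proteasome took 1.84% ± 0.109 from 1190 genes, and protein kinases took 1.48% ± 0.0769 from 869. The 644 genes described as transcription factors together took 0.845% ± 0.0563, less than the single most abundant mRNA *LHCB1.3*. Classes made from gene descriptions need not hold every gene of their function either. Heat shock proteins and other chaperones took 0.604% and histones 0.340%. The remaining 29190 genes, which no class took, held 69.0% ± 2.52 of the pool. Genes encoded in the chloroplast took 0.0660 to 0.0828% and those of the mitochondrion 0.0197 to 0.0221%, so organelle transcripts hardly appear in these libraries.

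**Figure D1:**
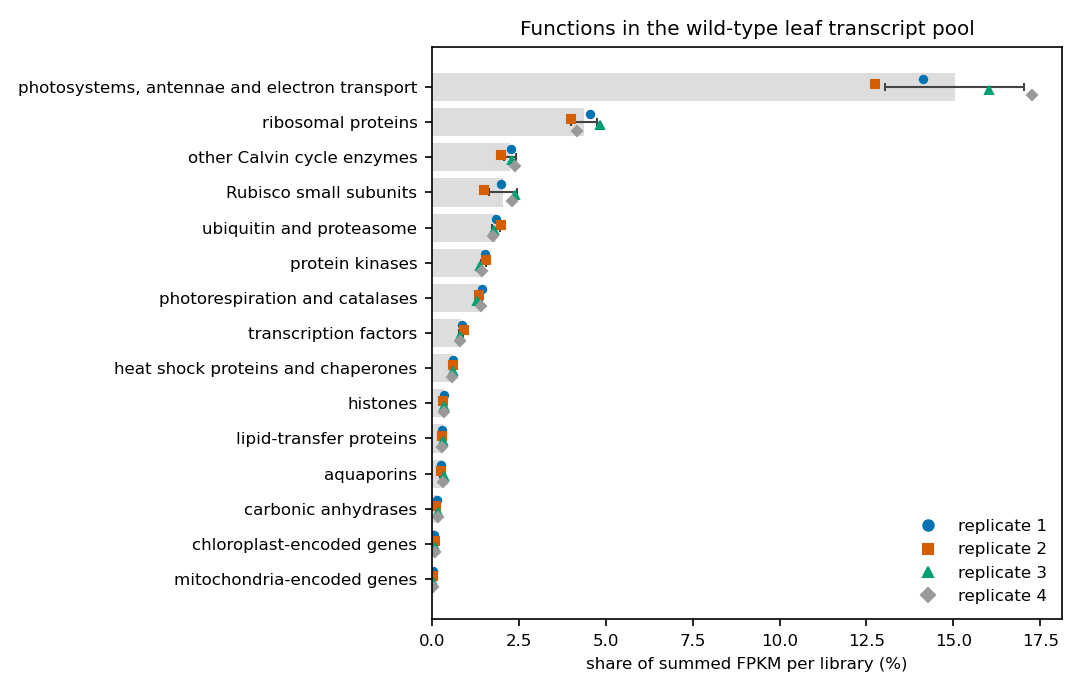
Share of the summed FPKM of each library (%, horizontal axis) for each class of genes. Bars are means of the 4 wild-type libraries with their SD, and points are the libraries. Photosystems, antennae and electron transport reach 15.04% and are lowest in replicate 2 (12.7%) and highest in replicate 4 (17.3%).

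The pool was concentrated in few genes. Between 12 and 17 genes made up 10% of the summed FPKM in a library, 63 to 98 genes made up 25% and 661 to 862 genes made up 50%. It took 7569 to 8021 genes to reach 90%. A single gene exceeded 10000 FPKM, 60 exceeded 1000 FPKM and 936 exceeded 100 FPKM. Among the 25 highest genes, 13 belonged to photosystems, antennae and electron transport, 2 to Rubisco small subunits, 1 to the rest of the Calvin cycle and 1 to catalases. Among the 100 highest, these classes held 42, 3, 9 and, with photorespiration, 4 genes.

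The highest mRNA was that of *LHCB1.3* (*At1g29930*, chr1:10477885-10479114, plus strand), which encodes a major chlorophyll a/b-binding protein of photosystem II. *LHCB1.3* had 15010.1, 14206, 18306 and 19447 FPKM in replicates 1 to 4, or 2.65% of all FPKM in the mean. *RBCS1A* (*At1g67090*, chr1:25048158-25049667, minus strand), the main gene of the Rubisco small subunit, followed with 8381, 6180.1, 10112 and 9976 FPKM. *LHCB1.3* exceeded *RBCS1A* in every library, by 1.79 to 2.299 times. *PSBR*, a small photosystem II protein (*At1g79040*, chr1:29735952-29737009, plus strand), came next with 4987, 4319, 5205 and 5392 FPKM. *RCA* (*At2g39730*, chr2:16570746-16573692, minus strand), the activase that frees Rubisco of inhibitory sugar phosphates, had 3872, 3009, 3851 and 4139 FPKM. In all of these replicate 2 was the lowest library.

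The 25 highest genes also held 8 outside the photosynthesis classes. *PER42*, a class III peroxidase (*At4g21960*), averaged 3302 ± 463 FPKM (SD, n = 4) and was highest in replicate 2 (3921 FPKM). *At2g25510* (3004 ± 243 FPKM), *ECS1* (2792 ± 182 FPKM) and *At5g42530* (2788 ± 252 FPKM) encode proteins of no well-established role. *THI1*, which makes the thiazole ring of vitamin B1, averaged 2324 ± 144 FPKM. The metallothionein *MT2B* (2142 ± 207 FPKM), the growth-related protein *TCTP1* (2136 ± 289 FPKM) and the myrosinase *TGG1* (2118 ± 239 FPKM) completed the set. *TGG1* cleaves glucosinolates, the defence compounds of the cabbage family.

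Rubisco small subunits came mostly from one gene. *RBCS1A* supplied 67.3% ± 1.43 of the family's FPKM, *RBCS3B* 18.9% ± 0.999, *RBCS2B* 10.9% ± 0.466 and *RBCS1B* 2.79% ± 0.204 (SD, n = 4). *RBCS3B* had 2331, 1580.0, 3083 and 2860.5 FPKM, *RBCS2B* had 1442, 929.7, 1700.2 and 1600.0 FPKM, and *RBCS1B* had 357, 232, 469 and 395 FPKM in replicates 1 to 4. All 4 genes were lowest in replicate 2 and highest in replicate 3, while their order was the same in every library. *RBCS3B* (chr5:15376988-15378642), *RBCS2B* (chr5:15380907-15382071) and *RBCS1B* (chr5:15383167-15385320) lie side by side on the minus strand. The coding sequence of *RBCS1B* is 97.3% identical to that of *RBCS2B*, and that of *RBCS3B* is 94.3% identical to it. How reads shared by such copies were assigned is not given in the sources used here, so the split among these 3 is less certain than the lead of *RBCS1A*.

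The regions at the annotated starts of *RBCS1A* and *RBCS2B* are shown because both genes are in the same family and the windows differ in the elements searched, some of which are known from light-regulated genes. Each runs from 250 bases before to 50 bases after the annotated start, 5′ to 3′ on the gene's strand, read from the TAIR10.1 assembly of RefSeq. Capitals mark the TATA box TATAAA, the I-box core GATAAG and the G-box CACGTG on either strand.
RBCS2B (chr5:15382022-15382321, minus strand): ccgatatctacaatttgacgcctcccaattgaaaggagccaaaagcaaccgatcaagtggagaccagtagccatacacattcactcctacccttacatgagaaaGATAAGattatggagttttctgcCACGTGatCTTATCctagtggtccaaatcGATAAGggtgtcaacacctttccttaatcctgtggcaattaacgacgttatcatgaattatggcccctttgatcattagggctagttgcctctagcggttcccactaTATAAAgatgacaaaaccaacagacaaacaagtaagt
RBCS1A (chr1:25049618-25049917, minus strand): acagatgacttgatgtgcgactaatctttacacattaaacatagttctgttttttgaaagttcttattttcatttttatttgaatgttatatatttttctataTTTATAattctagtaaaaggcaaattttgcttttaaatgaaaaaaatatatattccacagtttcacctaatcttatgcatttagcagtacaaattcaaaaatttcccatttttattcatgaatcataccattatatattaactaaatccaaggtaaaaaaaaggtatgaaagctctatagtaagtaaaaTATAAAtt
*RBCS2B* has GATAAG at positions −146 and −94, its reverse complement at −115 and the palindrome CACGTG at −123, counted from the annotated start, with no overlap among them. Its TATAAA lies at position 14, inside the annotated transcript. Of the elements marked, the window of *RBCS1A* holds only TATAAA, reversed at −147 and forward at 43, also inside the annotated transcript. The windows depend on the annotated starts, and bases outside them were not searched, so a missing match says nothing of the whole promoter. In 27419 nuclear protein-coding genes, windows of this length held TATAAA in 52.2%, GATAAG in 14.6% and CACGTG in 7.67%. The 62 genes of photosystems, antennae and electron transport held GATAAG in 40.3% and CACGTG in 32.3% of their windows. The 60 genes at 1000 FPKM or more, which include genes of that class, held them in 35.0% and 26.7%. A match of letters is a description and not a site of action.

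The antennae of photosystem II were led by a single gene, whereas those of photosystem I were shared by 4. *LHCB1.3* took 42.3% ± 1.797 of the FPKM of its family of 15. Its coding sequence is 96.4% identical to that of *LHCB1.2*, and that of *LHCB1.1* is 96.1% identical to it, so its share is subject to a like doubt about shared reads as the split of *RBCS* copies. Of the 100-base windows of the *LHCB1.3* transcript, 3.27% occur unchanged in another family member. The same share was 7.47% for *RBCS1B*, 12.1% for *RBCS3B* and 0% for *RBCS2B*. The 5 genes of the *LHCB1* type summed to 20039, 18326, 25179 and 27129.7 FPKM, against 3627, 3121, 4164 and 4865 FPKM for the 3 genes of the *LHCB2* type, the other main building block of the trimers. Their ratio stayed between 5.52 and 6.05, so the listed balance of the main antenna mRNAs was nearly the same in all libraries although the sums differed. *LHCB1.5*, at 0 in every library, lies almost wholly inside a gene on the opposite strand. The *LHCB1* sum, this ratio and the share of *LHCB1.3* may therefore lack its reads. *LHCB1.4* (1221, 989, 2003 and 2222 FPKM) and *LHCB1.1* (1591, 1146, 2263 and 2419 FPKM) varied most among the abundant members. Of the minor antennae, *LHCB5* averaged 3707 ± 673 FPKM, *LHCB4.1* 2858 ± 434 FPKM, *LHCB6* 2154 ± 524 FPKM and *LHCB4.2* 1776 FPKM. *LHCB4.3* stood at 149.9 ± 26.6 FPKM and the atypical *LHCB7* at 12.5 ± 0.633 FPKM.

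In the antenna of photosystem I, *LHCA4* averaged 3439 ± 657 FPKM, *LHCA2* 2791 ± 415 FPKM, *LHCA1* 2011 ± 386 FPKM and *LHCA3* 1832 ± 303 FPKM (SD, n = 4). They kept this order in every library, although the ranges of neighbours overlapped. *LHCA5* and *LHCA6*, which link photosystem I to the NDH complex, stood at 126 ± 16.6 and 87.9 ± 15.2 FPKM, and *LHCA3* exceeded *LHCA5* by 14.4-fold. All 6 genes were lowest in replicate 2 and highest in replicate 4.

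Subunits of one complex differed in level although each complex holds all of them. In photosystem I, *PSAL* had the most FPKM (2817 ± 353) and *PSAG* the fewest (497 ± 114), a 5.66-fold range over 9 subunits. *PSAG* lies to 61% inside a gene on the opposite strand, and genes of that kind were often listed low. *PSAF* (2152 ± 451 FPKM) and *PSAO* (2084 ± 384 FPKM) stood near the sum of both *PSAD* genes (2234 ± 356 FPKM). In the oxygen-evolving complex the sums were closer, with 3533 ± 442 FPKM for *PSBO*, 2704 ± 427 FPKM for *PSBQ* and 2522 ± 396 FPKM for *PSBP*. *PSBO1* exceeded *PSBO2* by 3.24 ± 0.0677 times, a ratio whose range was only 3.19 to 3.33. *PSBP* came almost wholly from *PSBP1*, with *PSBP2* at 12.1 to 16.6 FPKM. *PSBS*, the sensor of excess light in photosystem II, had 621, 519, 673 and 683 FPKM.

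Among mobile electron carriers *PETE2*, the main plastocyanin, averaged 1942 ± 363 FPKM and *PETE1* 237 ± 20.9 FPKM. Ferredoxin came from *FD2* (1447 ± 362 FPKM) more than from *FD1* (169.8 ± 35.2 FPKM), *FD3* of non-green tissue stood at 16.4 ± 1.29 FPKM, and *FD4* was at 0. The ferredoxin-NADP reductases *FNR1* and *FNR2* had 742 ± 54.2 and 351 ± 31.4 FPKM. *FD2* spread from 941 FPKM in replicate 2 to 1769 FPKM in replicate 4, whereas *FNR1* spread only from 673 to 805 FPKM.

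In the Calvin cycle the enzymes other than Rubisco stood well below *RCA*. The glyceraldehyde-3-phosphate dehydrogenase genes *GAPA1* (1189 ± 133 FPKM), *GAPB* (979.6 ± 96.6 FPKM) and *GAPA2* (781 ± 183 FPKM) gave a *GAPA* to *GAPB* ratio of 2.00 ± 0.141. The aldolase *FBA2* averaged 1458 ± 163 FPKM, followed by *FBA1* with 681 ± 54.8 FPKM and *FBA3* with 95.5 ± 5.65 FPKM. *PGK1* (752 ± 86.0 FPKM), *PRK* (717 ± 53.0 FPKM), *TKL1* (568.5 ± 39.7 FPKM) and *SBPASE* (505 ± 56.9 FPKM) formed a middle group. *TKL2*, the second transketolase, stood at 10.3 ± 1.19 FPKM. The regulator *CP12-1* (714 ± 68.4 FPKM) lay above *CP12-2* (545 ± 47.5 FPKM) with no overlap, and *CP12-3* was at 6.99 ± 0.737 FPKM. Carbonic anhydrase came mainly from *BCA1* (592, 392, 663 and 644 FPKM in replicates 1 to 4) and *BCA2* (255, 175, 313 and 313 FPKM).

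Apart from *GOX3*, photorespiration genes differed by less than 2-fold between libraries. *GGT1* and *AGT1*, aminotransferases of the peroxisome, averaged 902 ± 62.8 and 612 ± 25.9 FPKM. The glycolate oxidases *GOX1* and *GOX2* averaged 671 ± 26.1 and 430.3 ± 38.6 FPKM, while *GOX3* was at 3.27 ± 1.55 FPKM. In mitochondria, serine hydroxymethyltransferase came from *SHM1* (937 ± 109 FPKM) rather than *SHM2* (31.0 ± 0.654 FPKM). The P, H and T proteins of glycine decarboxylase summed to 682 ± 33.9, 837 ± 88.4 and 420.5 ± 70.2 FPKM. *PGLP1*, the phosphatase that opens the pathway, is listed at 0.228 to 0.373 FPKM, and the table gives the same protein name to a second gene, *At5g36790*, so its level is uncertain.

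Among catalases *CAT3* dominated with 2388, 2348, 1898 and 2126 FPKM, or 88.5% ± 1.92 of the family. *CAT2*, known as the main catalase of photorespiration, had 300, 205, 258 and 284 FPKM and was exceeded by *CAT3* 7.35 to 11.46 times. *CAT1* stood at 19.7 ± 1.93 FPKM. In nitrogen assimilation, *NIA2* supplied 92.5% ± 1.99 of nitrate reductase mRNA, with 510, 383, 505 and 495 FPKM, and *NIA1* had 35.0, 22.01, 56.2 and 42.7 FPKM. The plastid glutamine synthetase *GLN2* (734 ± 109 FPKM, 62.8% ± 3.59 of its family) exceeded the cytosolic *GLN1;2* (277 ± 26.1 FPKM) and *GLN1;1* (96.1 ± 20.5 FPKM), and *GLN1;5* was at 0.225 ± 0.110 FPKM.

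Among the phosphate translocators of the plastid 1 mRNA led. *TPT*, which exchanges triose phosphate for phosphate across the envelope, had 640, 569, 686 and 754 FPKM and exceeded the sum of the other 5 phosphate translocators 4.03 to 4.90 times. *PPT1*, for phosphoenolpyruvate, averaged 71.1 ± 2.72 FPKM, the glucose phosphate carrier *GPT1* 25.6 ± 1.64 FPKM, *PPT2* 23.4 ± 6.70 FPKM and *XPT* 22.8 ± 1.52 FPKM. *GPT2*, a carrier known to respond to sugar, was low and uneven, with 5.49, 8.998, 5.70 and 1.46 FPKM. It was the one translocator whose highest and lowest libraries differed by at least 2-fold, which defines a variable gene here and held for 1299 of the 17850 expressed genes (7.28%). Without replicate 4 none of the 6 was variable.

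The subgroup of related carriers to which the transporter mutated in the study belongs was low apart from *pGlcT*. In the paper's sequence tree the *SGB1* proteins form a clade separate from *pGlcT* and *pGlcT2*, and their place in the cell was not tested. *pGlcT* (*At5g16150*) had 91.3, 91.5, 98.2 and 111 FPKM and took 71.3% ± 3.01 of the subgroup. *pGlcT2* (*At1g05030*) had 9.39, 10.1, 8.26 and 9.48 FPKM, a mean of 9.31 ± 0.771 FPKM, and *SGB1a* had 7.22, 7.38, 6.71 and 7.41 FPKM. *SGB1b* lay between *pGlcT* and *pGlcT2* with 21.2, 27.0, 21.2 and 22.1 FPKM. No range overlapped with that of a neighbour, and *pGlcT* exceeded *pGlcT2* 9.05 to 11.9 times. *MEX1*, which exports maltose from the chloroplast, averaged 19.9 ± 1.75 FPKM, above *pGlcT2* and near *SGB1b*.

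Sucrose synthesis was led by *SPS1F*, with 97.2 ± 12.7 FPKM, which was 69.8% ± 1.67 of the sucrose phosphate synthase mRNA. *SPS4F* followed with 33.1 ± 4.48 FPKM, then *SPS2F* with 7.77 ± 1.04 FPKM and *SPS3F* with 1.125 ± 0.320 FPKM. Sucrose synthases, which cleave sucrose, were low, with *SUS1* at 34.5 ± 1.05 FPKM and the other 5 genes each below 5 FPKM in the mean. Phosphorylation of hexoses was led by *HXK1*, also a glucose sensor, with 40.7 ± 1.24 FPKM, over *HXK2* with 16.9 ± 1.85 FPKM. *HKL3* was at 0.

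For starch synthesis the small subunit *APS1* of ADP-glucose pyrophosphorylase (231 ± 11.51 FPKM) exceeded the 4 large subunit genes together 1.397 to 1.83 times. *APL1* averaged 66.1 ± 6.64 FPKM and the sugar-responsive *APL3* 56.3 ± 19.3 FPKM. *APL3* had 59.0, 82.5, 40.1 and 43.7 FPKM in replicates 1 to 4, and *APL1* lies to 79% inside a gene on the opposite strand. Granule-bound *GBSS1* had 68.9, 83.5, 45.7 and 55.2 FPKM and was matched by *SS1* with 56.7, 57.8, 60.04 and 64.3 FPKM, the one exceeding the other in 2 libraries each. Of the starch synthases *SS4* (37.8 ± 3.78 FPKM), *SS2* (22.8 ± 1.13 FPKM) and *SS3* (20.2 ± 1.43 FPKM) were lower.

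Starch degradation genes were all expressed. *BAM3*, the main β-amylase of the chloroplast at night, averaged 293 ± 23.0 FPKM and the stress-related enzyme *BAM1* 56.1 ± 5.59 FPKM. *BAM5*, a phloem β-amylase outside the plastid, had 36.3, 51.3, 34.9 and 15.1 FPKM, the widest spread of the 9. The plastid α-amylase *AMY3* (54.9 ± 1.799 FPKM) exceeded *AMY2* and *AMY1*, which overlapped. Among 12 other starch degradation genes *PHS2*, the cytosolic glucan phosphorylase, was highest with 121, 170.2, 122 and 126 FPKM, and the plastid phosphorylase *PHS1* followed with 92.0, 103, 95.6 and 102 FPKM. The dikinase *GWD1*, which phosphorylates starch to open it for attack, had 84.997, 121, 86.3 and 100.1 FPKM, and the phosphatase *SEX4* had 73.2, 101.2, 61.8 and 71.2 FPKM. Replicate 2 was the highest library in 10 of the 12, against 28.9% of all expressed genes. None of the 12 was variable by the 2-fold rule.

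Other families were as uneven among their members. Of 13 plasma membrane aquaporins, *PIP1;2* (523 ± 50.8 FPKM) and *PIP2;1* (409 ± 47.2 FPKM) supplied 28.3% and 22.1%, 6 members had means of 125 to 155 FPKM, and *PIP2;4* was at 1.32 ± 0.357 FPKM. The myrosinases *TGG1* and *TGG2* (1648 ± 65.1 FPKM) were accompanied by the specifier modifier *ESM1* (1224 ± 130 FPKM), while *ESP* and *NSP1* were at 31.9 ± 2.42 and 50.9 ± 14.1 FPKM. Superoxide dismutase was led by the iron enzyme *FSD1*, with 463, 254, 341 and 470.4 FPKM, over the copper-zinc enzyme *CSD1*, with 325, 281, 337 and 297 FPKM, in 3 of 4 libraries. *MSD1* of mitochondria had 148, 145, 144 and 145 FPKM, the most even member.

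Cytoskeleton, translation and light perception gave these orders. *ACT7* (315 ± 7.14 FPKM), *ACT2* (238 ± 19.6 FPKM) and *ACT8* (205 ± 11.46 FPKM) were the leaf actins, and *ACT4* and *ACT12*, known from pollen, were at or near 0. *EF1A4* (638 ± 58.8 FPKM) supplied 55.8% ± 1.27 of elongation factor 1-alpha mRNA. The other 3 *EF1A* genes differ little from each other (*EF1A1* and *EF1A3* are 99.6% identical in coding sequence), so their split is uncertain. Metallothioneins came from *MT2B*, *MT3* (1412 ± 39.1 FPKM) and *MT2A* (876 ± 145 FPKM). The blue light receptors *PHOT1* (97.8 ± 4.75 FPKM), *CRY1* (73.3 ± 3.57 FPKM), *CRY2* (73.2 ± 2.41 FPKM) and *PHOT2* (61.5 ± 5.54 FPKM) all exceeded the phytochromes, of which *PHYB* was highest (29.0 ± 2.33 FPKM) and *PHYD* lowest (9.43 ± 0.550 FPKM). Lipoxygenase mRNA was 95.2% ± 0.846 *LOX2*, the plastid enzyme that opens jasmonate synthesis, with 1034, 1357, 866 and 641 FPKM.

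Over 31 families with 189 members, 105 of 158 pairs of neighbours in order of level had ranges that did not overlap, and the ratio kept one direction in all libraries in 132 of the 150 pairs where it could be formed. In 24 families the first member was apart from the second, and in 17 it held more than 50% of the family's FPKM. With 4 libraries the smallest two-sided p of the exact sign-flip permutation test of such a ratio is 2 in 16, so no order can pass 0.05, and overlap of ranges is the description used.

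**Figure D2:**
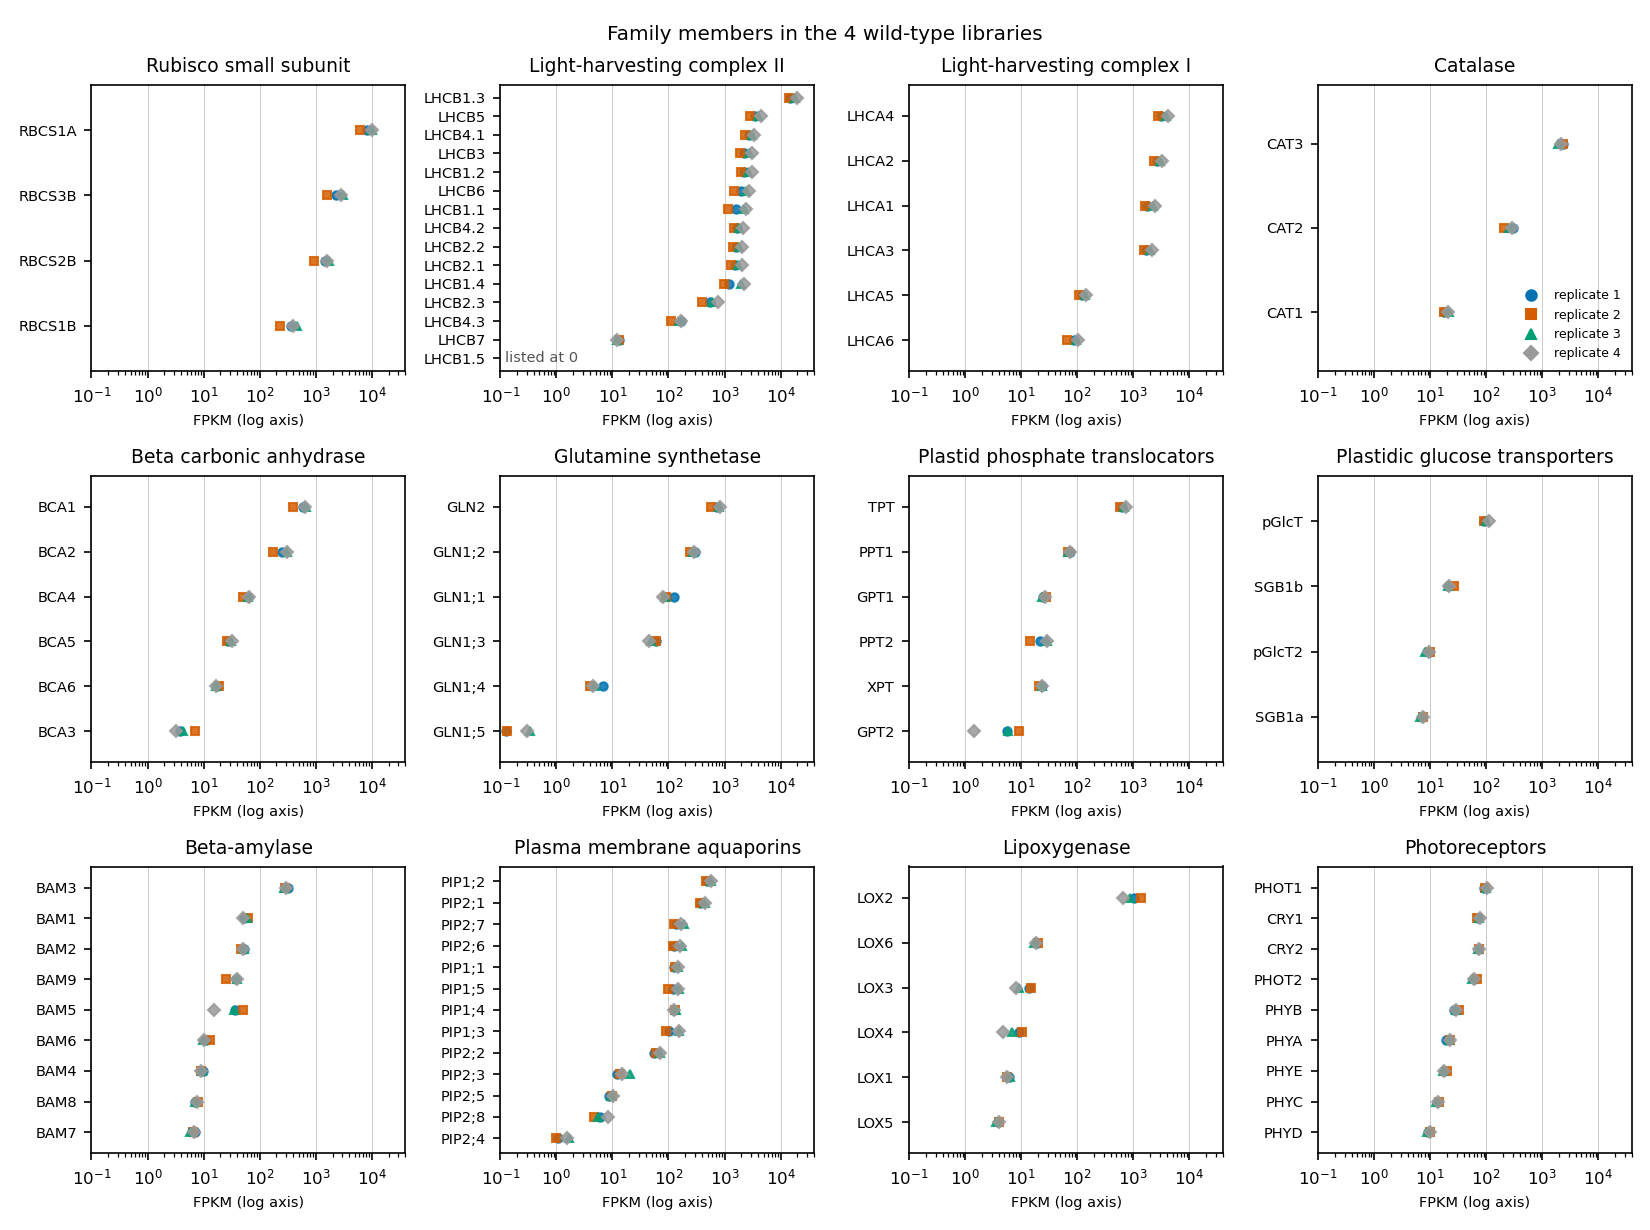
FPKM (log axis) of each member of 12 families in the 4 wild-type libraries, ordered by mean level, with one marker per library. RBCS1A, LHCB1.3, CAT3, TPT and LOX2 lead their families with no overlap, whereas LHCA4, LHCA2, LHCA1 and LHCA3 lie close together, and LHCB1.5 is listed at 0.

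Genes that lie inside a gene on the opposite strand were often listed at 0, and this bears on single members. Of protein-coding genes that no other gene overlaps, 19.9% were at 0 in every library, and of those with at least 90% of their length inside an opposite-strand gene 82.9% were (505 of 609). *LHCB1.5*, the anthocyanin enzyme *F3H*, the jasmonate regulator *MYC2*, the flowering factor *SPL3* and *ATPC2* are of this kind (94.5 to 100% inside) and were at 0, and the flowering repressor *FLC*, inside to 100%, was at 0.295 to 0.656 FPKM. The part of strand handling in these zeros was not tested. *MT1A* was at 0 too and lies wholly inside a gene on its own strand, and its close copy *MT1C* (94.9% identical) averaged 13.04 FPKM, with a range of 8.14 to 19.9 FPKM. In all, 18 of 502 listed genes were at 0 and 66 did not reach 1 FPKM.

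The spread between replicates was small for most genes. The coefficient of variation over the 4 libraries had a median of 9.64% over the expressed genes, against a median of 4.73% that counting error alone gives, and 83.8% of genes exceeded their own counting error. Genes at 1 to 5 FPKM had a median of 16.5% against a counting error of 10.7%, and 19.4% of them were variable. Genes at 10 to 100 FPKM had the smallest median, 7.50% against 3.38%, and 2.17% were variable. Above 1000 FPKM the median was 14.96% although counting error was 0.446%, and 3 of 60 genes were variable (5%). The most abundant genes thus differed more between libraries than genes of middle level, at a depth where counting adds little. Many of these 60 genes are photosynthesis genes that were lowest in replicate 2, so they are not independent observations. Medians by level were not computed without replicate 2.

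**Figure D3:**
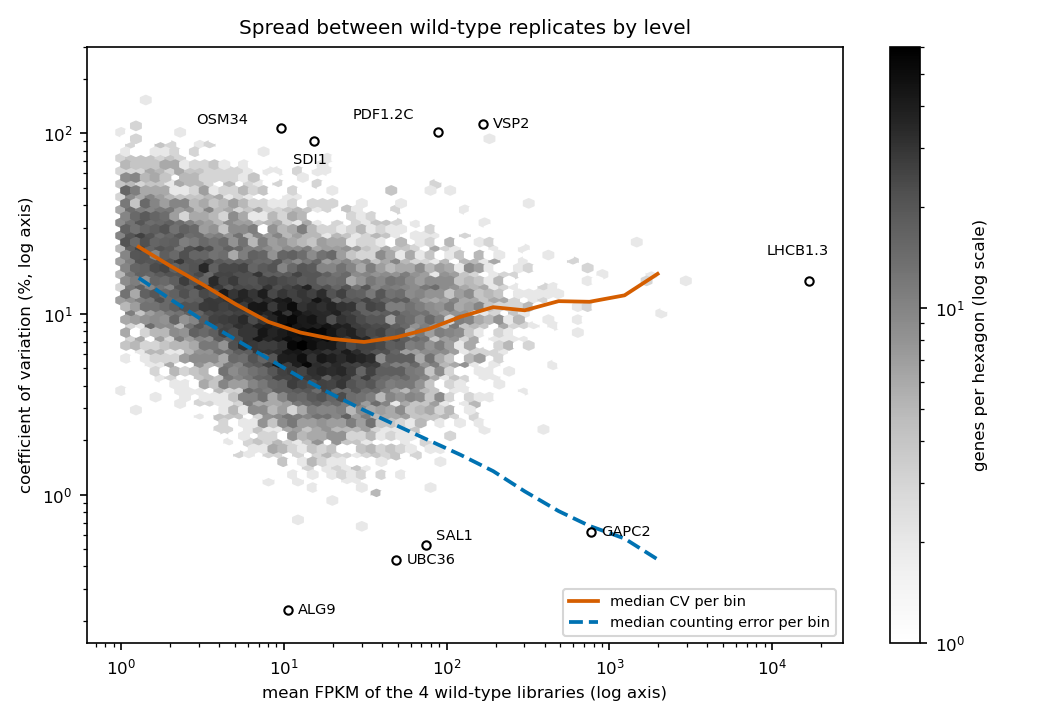
Coefficient of variation over the 4 wild-type libraries (%, log axis) against mean FPKM (log axis) for the 17850 expressed genes, shaded by their number, with the median per level (solid line) and the median counting error (dashed line). The solid line is lowest between 10 and 100 FPKM and lies further above the dashed line at high levels, and VSP2 and ALG9 mark both ends of the genes named.

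The libraries that set the extremes were not the same for highest and lowest values. A single library lay apart from the other 3, by the critical value of Dixon, in 964 expressed genes (5.4%), most often replicate 2 (409 genes). That share is near the 1 in 20 that chance gives. Replicate 2 was the highest library in 450 of the 1299 variable genes and replicate 4 the lowest in 530. Among the 100 genes with the largest coefficient of variation (mean of at least 5 FPKM and 100 reads), replicate 2 was highest in 62, replicate 1 in 29, and replicate 4 lowest in 79. Without replicate 2 the number of variable genes was 777, and it was between 777 and 1000 whichever library was left out. Several lists held a larger share of variable members than the 7.28% of all expressed genes, as given with each list. All 62 lists were chosen with earlier results of these data known, and members of one list are not independent of each other. Counts of members set beside the share of all expressed genes are therefore descriptions. In lists of fewer than 20 genes a count of 0 lies near that share.

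Leaf cells that lack phosphate switch on uptake, scavenging and the replacement of phospholipids, under the regulator PHR1, which binds the element GNATATNC. All 11 listed genes of this response were highest in replicate 2, against 28.9% of all expressed genes. Of the 11 genes 10 were variable, against 7.28% of all expressed genes. Without replicate 2, 3 of 11 were variable. The members were chosen with earlier results of these data known. Their summed level was 388, 836, 359 and 305 FPKM in replicates 1 to 4.

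Signalling members showed the pattern in every case. *AT4*, a noncoding RNA that sequesters miR399, had 50.9, 145, 54.97 and 38.8 FPKM, and its relative *IPS1* had 2.24, 13.03, 8.84 and 3.48 FPKM. *SPX1*, an inhibitor of PHR1, had 43.3, 93.3, 38.7 and 35.2 FPKM and *SPX3* had 1.75, 6.32, 4.51 and 1.41 FPKM. Replicate 2 exceeded the next library by more than 2-fold in *AT4* and *SPX1*, and replicate 3 came second for *IPS1* and *SPX3*. Genes of lipid remodelling were highest in the same library. *SQD1* and *SQD2*, which make sulfolipid, had 85.8, 147, 81.2 and 74.9 FPKM and 65.0, 139.5, 63.4 and 55.3 FPKM. The galactolipid synthases *MGD2* and *MGD3* had 10.5, 24.1, 9.20 and 9.26 FPKM and 5.14, 17.7, 6.76 and 4.33 FPKM, and the phosphodiesterase *GDPD1* had 36.4, 83.1, 23.62 and 22.3 FPKM. In scavenging and uptake, the acid phosphatase *PAP17* had 79.4, 151, 61.1 and 56.3 FPKM and the phosphate importer *PHT1;4* had 7.74, 16.2, 7.08 and 3.53 FPKM.

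The element GNATATNC was found in the windows (250 bases before to 50 after the annotated start) of 7 of these 11 genes (63.6%), against 6.24% of all 27419 windows. Because the genes were listed for a response under PHR1, which binds this element, the excess is not independent of their choice. Stretches around it are shown for the 7 genes because they share it, 5′ to 3′ on the gene's strand, read from TAIR10.1 (RefSeq), with the element in capitals; it is its own reverse complement.
AT4 (chr5:894530-894589, plus strand): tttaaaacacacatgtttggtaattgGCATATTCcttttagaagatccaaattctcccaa
SPX1 (chr5:6802278-6802331, plus strand): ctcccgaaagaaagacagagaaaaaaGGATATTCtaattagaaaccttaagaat
MGD2 (chr5:6896423-6896482, plus strand): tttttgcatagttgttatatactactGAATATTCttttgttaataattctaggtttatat
SQD1 (chr4:15935361-15935420, plus strand): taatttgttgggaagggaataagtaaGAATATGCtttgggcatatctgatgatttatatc
GDPD1 (chr3:350104-350163, minus strand): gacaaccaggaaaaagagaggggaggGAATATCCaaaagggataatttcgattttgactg
PHT1;4 (chr2:16257124-16257183, plus strand): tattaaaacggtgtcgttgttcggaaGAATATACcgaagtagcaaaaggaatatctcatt
SPX3 (chr2:18606171-18606230, plus strand): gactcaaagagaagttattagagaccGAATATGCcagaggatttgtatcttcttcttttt
In the stretches shown, the element begins before the annotated start in 5 of the 7 and after it in *SPX1* (position 23) and *SQD1* (position 15). In *PHT1;4* its last base is the annotated start base. *MGD2*, *GDPD1* and *SPX3* hold it at 2 positions each, which are −14 (shown) and 38 in *MGD2*, −127 (shown) and −63 in *GDPD1*, and −213 (shown) and −90 in *SPX3*. *AT4* holds it at −26 and *PHT1;4* at −7.

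Jasmonate genes were high in replicate 2 and low in replicate 4. Jasmonate, made from plastid lipids after wounding or attack, acts through the removal of *JAZ* repressors. Of 12 expressed genes 11 were highest in replicate 2, against 28.9% of all expressed genes. All 12 were lowest in replicate 4 (24.1% of all expressed genes) and 7 of 12 were variable (7.28% of all). Their sum was 1089.8, 1873, 779.6 and 522 FPKM in replicates 1 to 4. The enzymes *AOC2* (247, 404, 241 and 167 FPKM) and *AOS* (177, 251, 164 and 128 FPKM) stood above *OPR3* (65.6, 71.8, 55.5 and 46.0 FPKM). The response genes spread most, with *VSP2*, a storage protein induced by jasmonate, at 155, 440.2, 56.6 and 20.5 FPKM and its neighbour *VSP1* at 217, 409, 74.4 and 24.9955 FPKM. *VSP1* and *VSP2* kept a ratio of 0.929 to 1.396 while they differed 16.4-fold and 21.5-fold between libraries. *JAZ10* had 7.58, 6.12, 3.41 and 1.03 FPKM and was the one member highest in replicate 1. Without replicate 2, 5 of 12 were variable, and without replicate 4, 4 of 12.

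Anthocyanin and flavonoid genes shared the high value of replicate 2. They make red and colourless phenolics under the regulator *PAP1* with *TT8*. Of 11 expressed genes 10 were highest in replicate 2, against 28.9% of all expressed genes. Variable were 8 of 11 (6 of 11 without replicate 2), against 7.28% of all. The sums were 643, 963, 445 and 394 FPKM. *CHS*, the first enzyme, had 266, 370.5, 199 and 191 FPKM. The late enzymes *DFR* (102, 166, 61.2 and 43.0 FPKM) and *LDOX* (90.22, 137, 52.8 and 43.5 FPKM) moved together at a ratio of 1.123 ± 0.0965, and the carrier *GSTF12* had 68.6, 121, 38.7 and 32.7 FPKM. The regulators *PAP1* (16.5, 32.2, 10.3 and 8.65 FPKM), *TT8* (4.35, 7.51, 2.48 and 2.55 FPKM) and *PAP2* (3.97, 6.13, 1.14 and 1.88 FPKM) had the same order of replicates 2 and 1 over the others. *FLS1*, which leads to flavonols instead, was the exception, with 22.1, 20.6, 28.5 and 27.6 FPKM. CACGTG was found in the windows of 6 of the 12 listed genes (50%), against 7.67% of all windows.

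Defence genes of salicylic acid were led by replicate 1. Salicylic acid acts through *NPR1* to switch on pathogenesis-related proteins. Of 15 expressed genes 13 were highest in replicate 1, against 23.8% of all expressed genes, and 5 of 15 were variable, against 7.28%. The sums were 1756, 1249, 1088 and 735 FPKM. *PR2*, a glucanase, had 660.5, 625, 415 and 203 FPKM, *PR1* had 567, 259, 257 and 134 FPKM and *PR5* had 231, 136, 183 and 144 FPKM. *PR1* in replicate 1 was more than 2-fold above every other library, whereas *PR2* was high in replicates 1 and 2. The receptor *NPR1* (21.9 ± 1.13 FPKM), *PAD4* (26.4 ± 1.72 FPKM) and the synthesis gene *ICS1* (14.5 ± 2.03 FPKM) were not variable. Without replicate 1, 3 of 15 genes were variable, and without replicate 4, 2 of 15.

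**Figure D4:**
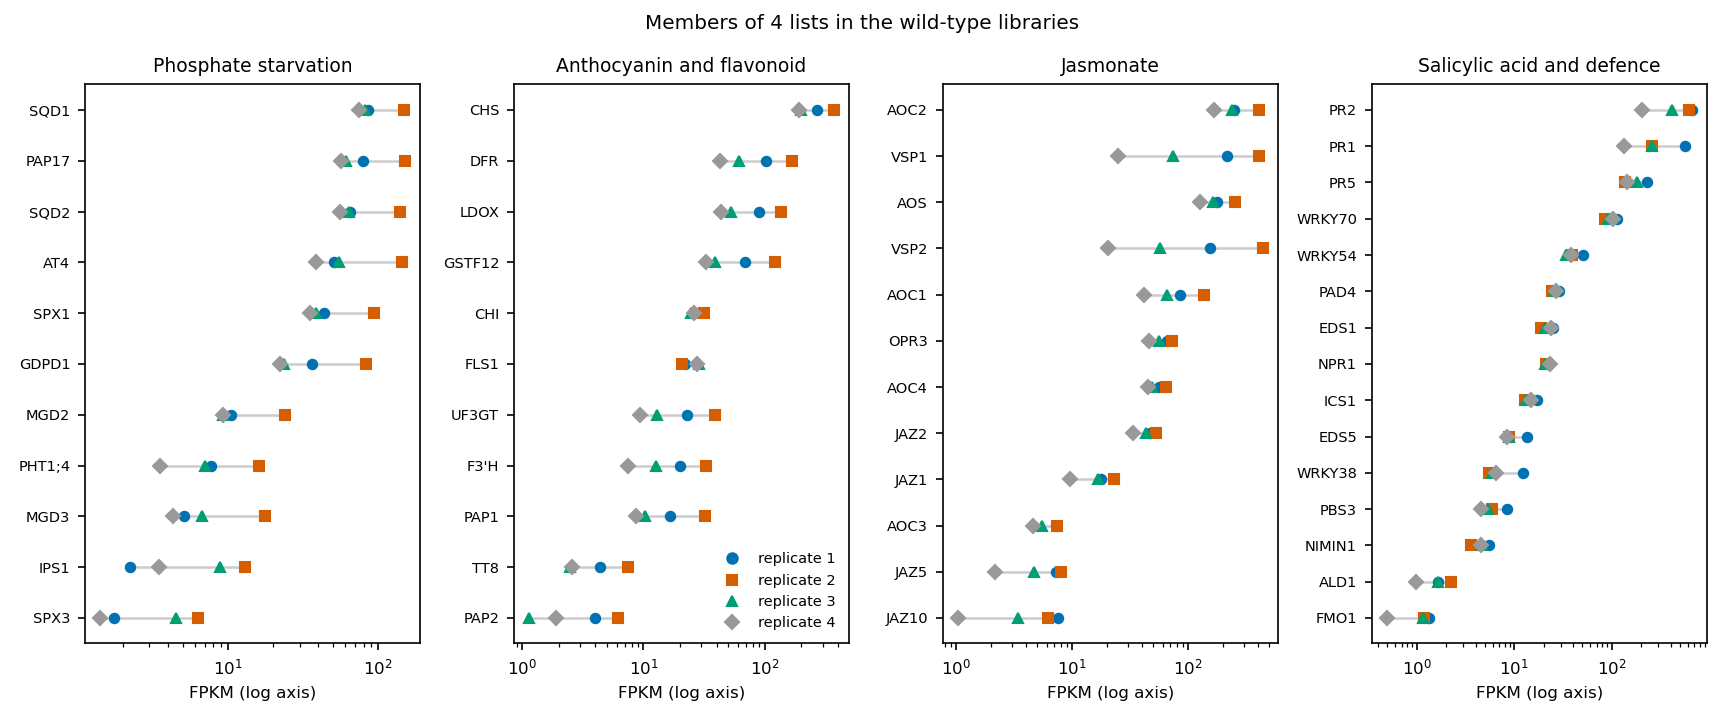
FPKM (log axis) of the members of 4 gene lists in each wild-type library, ordered by mean level. Replicate 2 is the highest library for all 11 phosphate starvation genes and for 10 of 11 anthocyanin and flavonoid genes, replicate 4 is the lowest for all 12 jasmonate genes, and replicate 1 is the highest for 13 of 15 salicylic acid and defence genes.

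Cold and abscisic acid genes were lowest in replicate 1 in 10 of 13 cases, against 19.3% of all expressed genes. Variable were 7 of 13 (3 without replicate 1), against 7.28% of all. *KIN2*, a small protein of cold and drought, was the highest with 860.3, 1248, 1099.8 and 1136 FPKM, followed by *RD22* with 594, 652, 609 and 711 FPKM. *COR15A*, a chloroplast protein that protects membranes in frost, had 92.5, 268, 133 and 237 FPKM, and *RD29A* had 72.6, 149.96, 94.5 and 110.2 FPKM. The inducers *CBF1*, *CBF2* and *CBF3* stood at 1.798 ± 0.459, 2.26 ± 0.543 and 5.08 ± 1.64 FPKM. *RD29B*, a gene of abscisic acid, stayed at 0.572 to 2.75 FPKM.

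Senescence and carbon starvation genes were low. *SAG13* had 76.5, 48.9, 46.1 and 18.9 FPKM and the regulator *NAP* had 25.6, 29.3, 21.7 and 23.8 FPKM. *SAG12*, a protease of senescent leaves, had 7.87 and 6.52 FPKM in replicates 1 and 2 and 0.0337 and 0.0381 FPKM in replicates 3 and 4, values at the level of single reads. The starvation marker *ASN1* had 22.1, 12.4, 9.90 and 10.4 FPKM, and *DIN10* had 9.67, 7.66, 18.6 and 12.5 FPKM with replicate 3 on top. Of 9 genes 5 were variable, against 7.28% of all expressed genes. The count was 3 of 9 without replicate 1 and 3 of 9 without replicate 2.

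Photosynthesis lists ran the other way and were lowest in replicate 2. All 4 genes of the Rubisco small subunit, all 6 *LHCA* genes and 13 of 14 expressed *LHCB* genes were lowest there, against 32.6% of all expressed genes. So were all 7 genes listed as single-copy photosystem I genes, all 8 photosystem II genes and 10 of 11 further Calvin cycle genes. The photosystem I list includes *CURT1B*, which is not among the subunits compared above. The size of the difference was smaller than for the response genes, and 3 genes of these lists were variable (*RBCS1B*, *LHCB1.1* and *LHCB1.4*). Without replicate 2 none of them was, *RBCS1B* was not without replicate 3 either, and without replicate 4 only 1 of the 2 *LHCB* genes was. Replicate 2 over the mean of the others was −0.674 on the log2 scale for *RBCS*, −0.42 for *LHCB* and −0.40 for *LHCA*, against 1.253 for phosphate starvation, 1.23 for jasmonate and 0.96 for anthocyanin. These directions were the same after rescaling to summed reads, which put replicate 2 higher, at −0.600 for *RBCS* and 1.32 for phosphate starvation. By median of ratios the values were −0.665 and 1.26. The factors of that scaling were 0.996 to 1.005, so it could change little and is no separate check. *RBCS1B* had a high to low ratio of 2.02 and *RBCS3B*, just below the threshold, of 1.95.

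**Figure D5:**
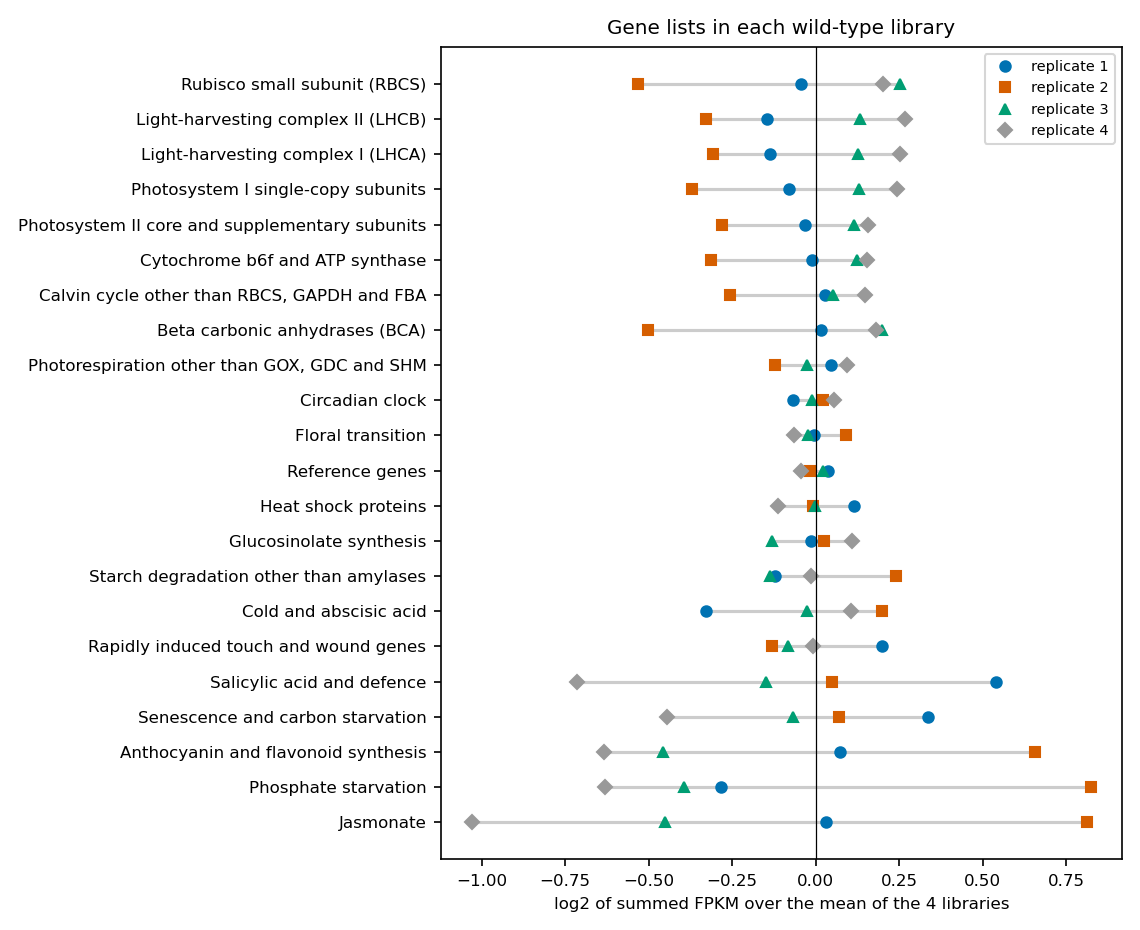
Log2 of the summed FPKM of each gene list in each wild-type library over its mean of the 4 libraries. Photosynthesis lists lie lowest in replicate 2, phosphate starvation, jasmonate and anthocyanin lists lie highest in replicate 2 and lowest in replicate 4, and reference genes stay near 0 in all libraries.

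All 17 clock genes were expressed and none was variable. Their median coefficient of variation, 11.9%, was above the 9.64% of all expressed genes. *LHY* and *CCA1*, known to peak around dawn, had 47.6, 39.1, 48.5 and 61.4 FPKM and 47.6, 39.8, 47.1 and 56.3 FPKM, at a ratio of 0.981 to 1.09. *TOC1*, their evening counterpart, had 29.5, 34.6, 31.8 and 29.8 FPKM, and *GI* had 15.01, 21.2, 14.1 and 14.9 FPKM. Replicate 2 was lowest for *LHY* and *CCA1* and highest for *TOC1* and *GI*. It was the highest library for 11 of the 17 genes, against 28.9% of all expressed genes. These differences were under 2-fold in every gene.

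Flowering genes were led by a repressor. *SVP* averaged 71.9 ± 2.51 FPKM, the integrator *SOC1* had 20.1, 27.3, 24.5 and 20.4 FPKM, and *AGL24* was nearly constant at 28.2 to 28.9 FPKM. *FT*, the mobile signal of long days, had 2.32, 1.48, 1.44 and 1.78 FPKM, while *LFY* stayed at 0.1203 to 0.325 FPKM. *CO* was listed at 0.587 to 0.888 FPKM and lies to 67% inside a gene on the opposite strand. None of the 7 expressed genes was variable.

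Inducible genes of heat and excess light were low. *HSP70-1*, a housekeeping chaperone, had 1501, 1466, 1399.9 and 1296 FPKM, whereas *HSP101* stood at 5.85 ± 0.476 FPKM and 5 of 18 heat genes, all of small heat shock proteins, stayed below 0.2 FPKM in every library. *APX1*, the cytosolic ascorbate peroxidase, averaged 348 ± 31.2 FPKM, and the inducible *APX2* was at 0 to 0.0517 FPKM. *ELIP1*, a light stress protein, had 5.66, 7.55, 6.59 and 6.91 FPKM and *ELIP2* was below 1 FPKM. Of 18 touch and wound genes, which respond to handling within minutes, 11 were highest in replicate 1, against 23.8% of all expressed genes. Of the 18 genes 1 was variable (none without replicate 2 or without replicate 3), against 7.28% of all. *TCH3* had 55.9, 33.8, 49.7 and 48.1 FPKM and *WRKY33* had 32.0, 28.1, 21.7 and 25.97 FPKM.

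Of 12 glucosinolate synthesis genes none was variable, while their median coefficient of variation was 13.5%, against 9.64% of all expressed genes. *CYP83B1* of the indolic branch had 349.7, 358, 248 and 260.1 FPKM, and *CYP83A1* of the aliphatic branch had 236, 236, 243 and 282 FPKM. Replicate 4 was the highest library in 9 of the 12, against 23.3% of all expressed genes. Among the 9 was the regulator *MYB29* with 21.2, 22.2, 22.8 and 32.0 FPKM. Of the iron status genes 4 of 8 were expressed, with the ferritins *FER1* at 146 ± 26.4 FPKM and *FER4* at 41.2 ± 8.22 FPKM and the deficiency factor *BHLH100* at 0.430, 2.09, 1.60 and 0.644 FPKM. *FER1* lies to 64% inside a gene on the opposite strand.

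Sugar carriers of the plasma membrane and vacuole were led by phloem loading. *SUC2* had 88.4, 102, 74.4 and 99.2 FPKM, and the exporters *SWEET11* and *SWEET12*, which pass sucrose to it, had 67.6, 69.5, 65.6 and 61.3 FPKM and 39.6, 56.7, 39.8 and 40.9 FPKM. The vacuolar carrier *TST1* averaged 36.2 ± 3.08 FPKM and the hexose importer *STP1* 37.2 ± 5.16 FPKM. *SWEET15*, a senescence exporter, had 0.164, 0.390, 3.39 and 0.0736 FPKM, so a single library brought it over 1 FPKM. Of 19 expressed carriers 4 were variable, against 7.28% of all expressed genes. The count was 1 of 19 without replicate 2 and 1 of 19 without replicate 3.

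Reference genes were the most even of the lists with more than 1 expressed member. Their median coefficient of variation was 5.76%, and none of 11 was variable. *UBQ10* had 1171, 1141, 1126 and 1059.8 FPKM and *GAPC2* had 767, 775, 763 and 769 FPKM. *GAPC2*, the cytosolic counterpart of *GAPA* and *GAPB*, varied by 0.621% and was among the 15 genes with the smallest coefficient of variation of 12923 genes with at least 5 FPKM and 100 reads. *SAND*, at 17.7, 22.5, 19.9 and 21.2 FPKM, varied most of this list (10.1%).

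The most even genes included several with housekeeping roles. *ALG9*, a mannosyltransferase of protein glycosylation, had 10.5, 10.5, 10.5 and 10.6 FPKM (0.229%), and *MED20A*, a subunit of the transcription mediator, had 12.4, 12.4, 12.3 and 12.4 FPKM (0.328%). The ubiquitin-conjugating enzymes *UBC36* (0.433%) and *UBC33* (0.544%), the phosphatase *SAL1* (0.524%), the DEK protein *At5g55660* (0.653%) and *EX1*, which senses singlet oxygen in chloroplasts (0.717%), were others. *ALG9* and *UBC36* lie next to each other on the minus strand of chromosome 1, at 5779008 to 5782433 and 5776177 to 5778529. In 14 of these 15 genes the value lay below the counting error of the gene (2.11 to 7.25%), the exception being *GAPC2* (0.589%), so most of these values are the low end of many genes ranked.

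The most uneven genes included several of defence and wound response. Besides *VSP2* (113%) and *VSP1* (95.0%) there were *OSM34*, an osmotin, with 24.9, 6.85, 1.804 and 5.10 FPKM (107%), and *PDF1.2C*, a plant defensin, with 152, 179, 16.6 and 6.89 FPKM (100.99%). *PDF1.2A* had 325, 323, 50.3 and 27.1 FPKM and *PDF1.3* had 24.7, 15.9, 8.51 and 1.52 FPKM, so all 3 defensins were high in replicates 1 and 2 and low in replicate 4. *PXMT1*, a methyltransferase, had 26.7, 6.27, 5.54 and 4.81 FPKM, and *CYP71A12*, an enzyme of indolic defence compounds, had 15.1, 6.49, 3.00 and 3.63 FPKM, both highest in replicate 1. *SDI1*, a gene of sulfur deficiency, had 12.2, 35.5, 8.48 and 4.75 FPKM and *GES*, which makes a volatile precursor, had 16.2, 18.3, 4.37 and 0.968 FPKM. *MSRB7* (90.6%), the glucanase *At4g16260* (77.5%), *At5g03210* (76.7%), the lipase *At1g54020* (75.3%) and *ATCSLA01* (74.8%) completed the 15. Across these 15 genes replicate 4 or replicate 3 was always the lowest library.

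The share of windows with an element was also counted by class of gene. The telo-box AAACCCTA was found in 39.6% and TGGGCC, a site of TCP factors, in 55.3% of the windows of ribosomal protein genes, against 6.21% and 15.5% of all windows. Variable genes held TGGGCC in 8.69% and GNATATNC in 10.1% of their windows, and expressed genes that were not variable held them in 20.7% and 6.02%. Clock genes held CACGTG in 7 of 17 windows, against 7.67% of all windows. Both strands were searched, and genes that share a family or a promoter region are counted separately.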

How the data were processed

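Wild-type leaf RNA was measured in 4 biological replicates by RNA-seq from directional libraries. The authors deposited one FPKM value per gene and sample, with TAIR10 as the genome. In the submitters' notes the tools are StringTie 1.3.3, HISAT2 2.0.5 and fastp. The read counter, its strand setting and the selection of RNA are not given in the sources used here. The 8 columns of the other genotypes and the 3 columns of group means by the authors were not used.

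FPKM times gene length gave whole reads (tolerance 0.01), which set the depth at 19035449 to 24276381 reads per library, so that 1 read in a gene of 1 kb is worth 0.0439 to 0.0553 FPKM. Counting errors follow from these reads and cover counting error only. A gene was called expressed at a mean of 1 FPKM and variable where its highest library was at least 2 times its lowest, and a library was called apart by Dixon's critical value of 0.829. With a single group no test between groups was possible. Ratios of isoforms were given an exact two-sided sign-flip permutation test, which was tested on simulated data together with the other scripts.

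Genes of the organelles were classed by gene identifier. The photosystem, Rubisco, Calvin cycle, photorespiration and carbonic anhydrase classes were made of genes from the lists. Other functions were assigned from the gene descriptions in the table. The 62 lists (502 genes) were chosen with earlier results of these data known. Genes were named as the 25 highest, every member of each isoform family, in other lists the 2 highest and the most uneven member, and the 15 most and 15 least even genes of at least 5 FPKM and 100 reads. Further list members named were chosen after their values were seen. Sequences were read from TAIR10.1 (RefSeq), whose coordinates equalled those of the table for 27418 of 27419 nuclear protein-coding genes with a locus tag. Python 3.11.15, numpy 2.4.6, pandas 2.3.3, biopython 1.88 and matplotlib 3.10.9 were used.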

Additional observations from a re-analysis of the deposited data

Results flagged for a closer look

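Among 288 named genes with a mean of 1 FPKM or more, 11 had 1 library far from the other 3 by Dixon's critical value (3.82%), against 5.4% of all expressed genes, and chance gives about 1 in 20. Replicate 2 was that library in 6 of the 11. It was low for *NIA2* (383 FPKM) and *BAM9* (25.01 FPKM) and high for *SGB1b* (27.0 FPKM), *PHS2* (170.2 FPKM), *SQD1* (147 FPKM) and *At5g06120* (12.2 FPKM). Replicate 1 was high for *PXMT1* (26.7 FPKM). Replicate 3 was high for *SWEET15* (3.39 FPKM) and low for *GLDP1* (478 FPKM). Replicate 4 was high for *CYP83A1* (282 FPKM) and low for *AGL24* (28.2 FPKM).

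The same rule was applied to the sums of 62 lists. Replicate 2 was low for the plastid aldolases (1923 FPKM), glutamine synthetases (979.9 FPKM) and nitrate reductases (405 FPKM) and high for phosphate starvation genes (836 FPKM). Replicate 1 was high for seed genes at a sum of 0.395 FPKM, which is the level of single reads.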

How the results depend on the processing

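No paired analysis was possible because a single group was studied. Shares of recovered reads, which weight long genes more, were 10.7% for photosystems, antennae and electron transport (15.04% by FPKM), 1.56% for Rubisco small subunits (2.04%), 2.44% for other Calvin cycle enzymes (2.24%), 1.97% for photorespiration and catalases (1.37%) and 2.69% for ribosomal proteins (4.39%). The number of variable genes (1299) depended most on the rule. It was 384 at a mean of 5 FPKM, 459 at 100 reads, 663 on FPKM + 1, 3580 at a ratio of 1.5 and 456 at a ratio of 3. Rescaling to reads gave 1305, median of ratios 1295, and leaving out genes with opposite-strand overlap, an alternative chosen after seeing the data, 1228. The median-of-ratios factors were 0.996 to 1.005, so that scaling could hardly change the count. The lowest r between libraries (0.979) was 0.971 with a pseudocount of 0.1, 0.973 at 5 FPKM and 0.992 without a filter.

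Leaving out each library in turn gave 777 to 1000 variable genes, 777 without replicate 2, and a median coefficient of variation of 7.92 to 9.51% (9.64% with all). The shares became 14.3 to 15.8% for photosystems, 1.93 to 2.22% for Rubisco small subunits, 2.19 to 2.32% for other Calvin cycle enzymes, 1.35 to 1.397% for photorespiration and 4.24 to 4.51% for ribosomal proteins. Neighbours with ranges apart numbered 107 to 124 (105 with all), partly since 3 libraries span less than 4. By reads the leader changed in 4 of 31 families. Rescaling to reads turned the sign of replicate 2 over the other libraries in 6 of 62 lists. Among them were actins (−0.0715 against 0.00155 rescaled, log2) and reference genes (−0.0214 against 0.0513). No such sign turned by median of ratios, whose factors lay too close together to change much. Below 5 FPKM counting error (a median of 10.7%) limits what the spread can show.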

Other observations

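Genes annotated as lncRNA made up 10.6% of the table (3481 genes) but 0.205% of the summed FPKM. The 27628 protein-coding genes held 98.8%, and the 325 miRNA loci held 0.122%. Genes of chromosome 1, which carries *LHCB1.3* and *RBCS1A*, held 29.7% ± 0.529 of the pool (SD, n = 4) with 26.3% of the genes. Chromosome 5 held 21.1% with 22.4% of the genes, and chromosome 2 held 15.2% with 15.8%.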
